A study of Homo sapiens with 6 samples.

Results

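The genes described here are 10 members of the core cell cycle machinery, namely the cyclin-dependent kinases (CDKs) CDK1, CDK2, CDK4, CDK6 and CDK7 and the CDK inhibitor genes CDKN1B, CDKN2A, CDKN2C, CDKN2D and CDKN3. They were taken from the deposited table of 28752 genes by gene name, and CDKN1A, the gene of the CDK inhibitor p21, was left out as a member. All 10 were present once and all 10 passed the filter on low counts, as did 16458 genes in total. RNA was sequenced from SH-SY5Y, an established human neuroblastoma cell line. The cells had been transfected 72 h earlier, 3 libraries with OE-circSHPRH and 3 with OE-NC. The labels spell out neither OE nor NC, and OE-NC is read here as a negative control. Nor do they say whether replicates were separate cultures, so the p-values cover only the spread among these libraries, which may be technical. The model is a single line, and the share of cells that took up the construct was not analysed here. Because these are bulk libraries, fewer cells of a cell cycle phase and less RNA per cell cannot be told apart.

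CDKs are kinases that act only when bound to a cyclin. CDK4 and CDK6 pair with D-type cyclins early in G1, CDK2 pairs with E-type and A-type cyclins around S phase, and CDK1 pairs with A-type and B-type cyclins to drive mitosis. CDK7 with cyclin H and MNAT1 phosphorylates the activation loop of the other CDKs and is also part of the transcription factor TFIIH. The INK4 proteins, encoded among these genes by CDKN2A, CDKN2C and CDKN2D, bind CDK4 and CDK6, whereas p27, the product of CDKN1B, and p21 bind cyclin-CDK complexes, above all those of CDK2. CDKN3 encodes a phosphatase that removes the activating phosphate from CDK2. The title of the series ties p21 to inhibition of the CDKs, and the comparison below asks whether the mRNA levels of the kinases and of the other inhibitors differed between the groups.

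Promoter windows are shown for the 4 members whose libraries did not overlap between the groups (CDK1, CDK4, CDK7 and CDKN1B) and for CDKN3, which shares motifs with CDK1. Each window runs from 250 bases before to 50 bases after a RefSeq transcription start (GRCh38.p14), 5′ to 3′ on the strand of the gene. Where a gene had several windows, CDK1 is shown by the one with more motif matches and CDK7 by the one at the start of the deposited gene. Capitals mark matches on either strand to CCAAT, the box bound by NF-Y, to TTTGAA, a core of the cell cycle homology region, to the E2F-type motifs TTTGGCGC and TTTCGCGC, and to the GC box GGGCGG.
CDK1, plus strand, chr10:60778228-60778527: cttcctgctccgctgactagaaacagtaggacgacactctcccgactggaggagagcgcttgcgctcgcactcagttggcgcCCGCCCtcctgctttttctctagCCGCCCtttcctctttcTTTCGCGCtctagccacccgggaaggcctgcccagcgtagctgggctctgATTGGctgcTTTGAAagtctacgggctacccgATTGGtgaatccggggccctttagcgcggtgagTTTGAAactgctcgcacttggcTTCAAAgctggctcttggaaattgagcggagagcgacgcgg
CDKN3, plus strand, chr14:54396757-54397056: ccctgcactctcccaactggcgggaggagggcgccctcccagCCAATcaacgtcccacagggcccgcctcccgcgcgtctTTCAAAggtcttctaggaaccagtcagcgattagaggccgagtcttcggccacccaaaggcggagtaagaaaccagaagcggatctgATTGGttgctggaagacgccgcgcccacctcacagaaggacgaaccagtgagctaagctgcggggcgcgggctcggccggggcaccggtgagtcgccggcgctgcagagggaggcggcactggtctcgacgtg
CDK4, minus strand, chr12:57752261-57752560: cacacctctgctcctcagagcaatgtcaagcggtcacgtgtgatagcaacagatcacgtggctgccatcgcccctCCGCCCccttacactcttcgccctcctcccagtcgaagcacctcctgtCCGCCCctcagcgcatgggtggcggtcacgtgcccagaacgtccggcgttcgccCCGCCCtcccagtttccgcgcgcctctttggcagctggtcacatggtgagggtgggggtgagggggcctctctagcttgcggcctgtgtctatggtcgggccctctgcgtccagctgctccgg
CDK7, plus strand, chr5:69234545-69234844: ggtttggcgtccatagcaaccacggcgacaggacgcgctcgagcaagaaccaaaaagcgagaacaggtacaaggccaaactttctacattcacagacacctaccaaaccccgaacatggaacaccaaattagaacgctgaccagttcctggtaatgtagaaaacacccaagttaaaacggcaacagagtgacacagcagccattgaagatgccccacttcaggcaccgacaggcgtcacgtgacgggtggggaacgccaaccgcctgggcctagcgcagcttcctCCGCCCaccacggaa
CDKN1B, plus strand, chr12:12717118-12717417: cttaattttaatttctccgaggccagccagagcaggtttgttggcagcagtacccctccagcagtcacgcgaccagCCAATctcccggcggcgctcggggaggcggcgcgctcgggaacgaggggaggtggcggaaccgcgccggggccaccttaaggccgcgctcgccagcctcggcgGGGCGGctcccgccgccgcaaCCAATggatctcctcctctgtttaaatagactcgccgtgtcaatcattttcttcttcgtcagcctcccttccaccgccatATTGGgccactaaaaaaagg

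No match of one motif overlapped that of another in these 5 windows. In the printed CDK1 window TTTGAA occurred 3 times, one of them starting 13 bases before the start site, and CCAAT occurred 2 times on the opposite strand, starting 78 and 46 bases before it. CDKN3 held CCAAT 2 times and TTTGAA once, the latter 170 bases before its start. CDK4 and CDK7 held GC boxes alone (3 and 1), and CDKN1B held CCAAT 3 times and 1 GC box. The 9 members with an entry had 15 windows. The NF-Y box was held by 6 of these 15 windows against 34.6% of all 35116 windows of this length, and the GC box by 11 against 45.0%. The overlapping windows of CDK1 hold the same GC boxes, as do the overlapping windows of CDK7. These 11 windows are therefore not all separate matches. The cell cycle homology core was held by 3 windows against 15.2% of all. The E2F-type motif TTTCGCGC was held by 2 windows against 0.515% of all, and the other E2F-type motif by none against 0.652%. TTTGAA lay in both windows of CDK1 and in that of CDKN3, and TTTCGCGC lay in both windows of CDK1, which overlap and share that one match. These are letter matches and not measured binding sites.

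Total counts per library ran from 15645261 to 17591718, and the mitochondrially encoded share of counts from 10.2% to 12.1%. By that share a low class holds OE-NC replicates 1 and 2 with OE-circSHPRH replicate 3, and a high class holds the other libraries, so the classes cut across the groups. The check of the construct held: SHPRH was 2.91-fold higher in OE-circSHPRH (edgeR adjusted p = 2.26e-09), counted over the whole host gene, so that circular and linear RNA are not separated. All 13 adrenergic neuroblastoma markers passed the filter, with a summed FPKM of 1852 to 1873 in OE-NC and 1887 to 1947 in OE-circSHPRH. None of them was called. At an unadjusted edgeR p under 0.05 5 of the 13 passed, against 10.3% of all genes tested. For 6 of the 13 the groups did not overlap, against 15.6%. The smallest p were those of DCX (log2 fold change 0.31, edgeR adjusted p = 0.131), DBH (0.15, adjusted p = 0.149) and CHGA (-0.16, adjusted p = 0.168). In total 8 markers had a positive and 5 a negative log2 fold change. The 6 mesenchymal markers in the table summed to 126 to 138 and 128 to 134 FPKM. Of the 5 that were tested none was called, and 2 passed an unadjusted p under 0.05. The 6 markers of other cells in the table stayed between 0.624 and 1.02 FPKM in sum, with ALB and PECAM1 at 0 counts in every OE-NC library. Most of that sum was EPCAM, with 22 to 39 counts per library and means of 0.771 FPKM in OE-NC and 0.681 in OE-circSHPRH. EPCAM and GFAP, which had 6 to 13 counts, passed the filter and were not called. The part of these differences in the values below was not tested.

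Levels between genes were compared per length, on the deposited FPKM scale. CDK4 was the most abundant member, with a mean of 64.6 FPKM over 6 libraries, at the 97.1st percentile of the genes tested. CDK6 at 51.3 and CDKN1B at 50.7 FPKM followed, and their ranges overlapped, with CDK6 above CDKN1B in 3 of 6 libraries. CDK7 stood alone at 16.1 FPKM. Next came CDKN2C at 10.3, CDK2 at 9.40 and CDK1 at 9.09 FPKM, each overlapping its neighbour in range. CDKN2A at 3.96, CDKN2D at 3.28 and CDKN3 at 2.68 FPKM closed the order, again overlapping. The highest mean was 24.1 times the lowest. CDKN1A, for comparison, had a mean of 292 FPKM and lay above every member in every library.

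**Figure D1:**
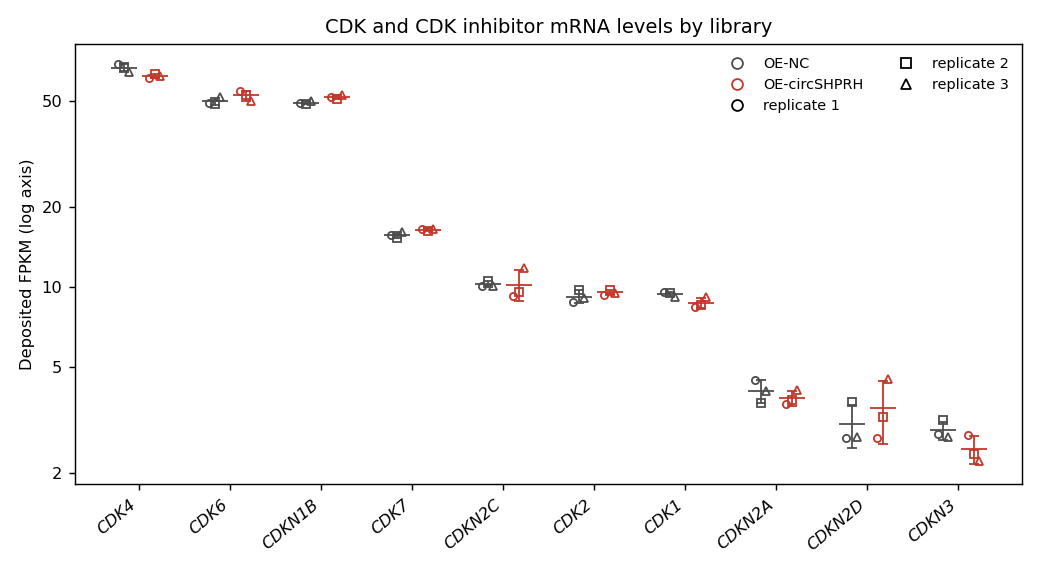
Deposited FPKM (log axis) of the 10 genes in each library, with OE-NC in grey and OE-circSHPRH in red. Symbols are single libraries by replicate and bars are the mean ± SD of 3 libraries. CDK4 lies at 61.1 FPKM or above in every library, and CDKN3 never exceeds 3.16 FPKM.

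The lower part of this order depends on the length used, because the deposited length is that of all annotated exons merged. For CDKN2A that length was 4329 bases against 1283 bases for its principal transcript in GENCODE 29, a ratio of 3.37, and for CDK1 it was 3931 against 1913 bases. For CDK6 both lengths were close, at 12260 and 11612 bases. Per kilobase of principal transcript, CDK4 had 99.6 TMM-scaled CPM, counts relative to library size, CDK6 54.8, CDKN1B 54.2 and CDK7 27.3, in the same order as before. CDK1 then followed with 18.9, CDK2 with 16.1, CDKN2A with 13.5 and CDKN2C with 11.9, so CDKN2C moved from the fifth place to the eighth. CDKN3 with 5.57 and CDKN2D with 3.51 also exchanged places.

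None of the 10 members was called between the groups by edgeR's quasi-likelihood test, with p adjusted over all genes and a threshold of 0.05, against 0.188% of the 16458 genes tested. Limma-voom also called none. DESeq2 called none of the 6 members to which it gave an adjusted p, and gave none to CDKN2A, CDKN2C, CDKN2D and CDKN3. At an unadjusted p under 0.05 1 member passed, CDK4, against 10.3% of all genes. Without OE-circSHPRH replicate 3 this number was 3 (CDK1, CDK4 and CDK6), and it was 0 without OE-NC replicate 1, without OE-NC replicate 2 or without OE-circSHPRH replicate 1. The log2 fold changes, OE-circSHPRH over OE-NC, ran from -0.24 for CDKN3 to 0.20 for CDKN2D, with 5 above and 5 below 0. Their median was 0.02, against 0.0018 over all genes tested. This member median was -0.07 without OE-circSHPRH replicate 3, 0.0011 without OE-NC replicate 1, 0.0099 without OE-NC replicate 3, 0.04 without OE-circSHPRH replicate 2 and 0.05 without OE-circSHPRH replicate 1. In all libraries the median absolute value was 0.08 for the members and 0.08 for all genes. In the authors' deposited table the smallest adjusted p of a member was 0.420, for CDK4.

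**Figure D2:**
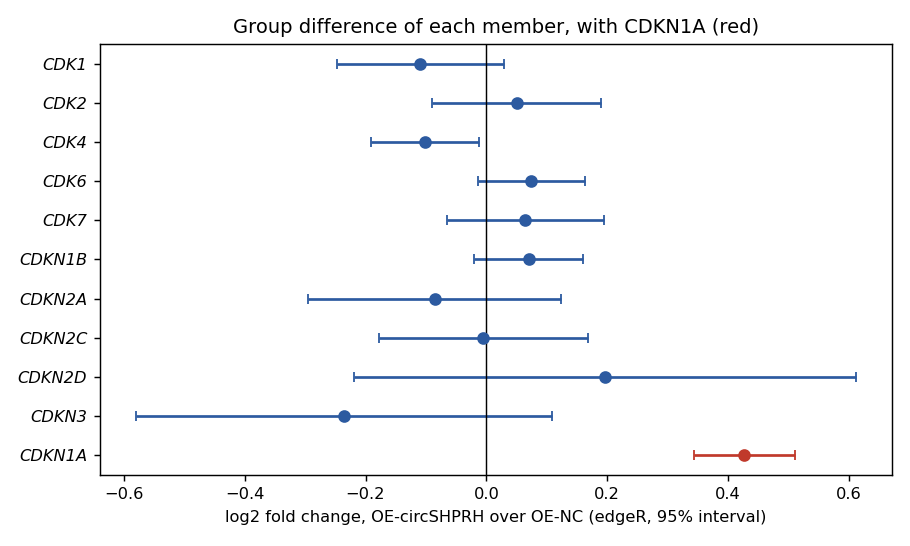
Log2 fold change of each member, OE-circSHPRH over OE-NC, with its 95% interval from the edgeR fit (3 libraries per group), and CDKN1A in red. The intervals of 9 members span 0, that of CDK4 ends at -0.01, and CDKN1A lies at 0.43.

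CDK4, a G1 kinase, had 68.9, 67.2 and 64.5 FPKM in OE-NC replicates 1 to 3 and 61.1, 63.4 and 62.3 FPKM in OE-circSHPRH replicates 1 to 3. All OE-circSHPRH libraries were below all OE-NC libraries. On the TMM-scaled CPM scale the means were 214 ± 7.12 and 199 ± 3.93 (SD, n = 3 each), a fold of 0.932 with a 95% interval of 0.876 to 0.991 (edgeR adjusted p = 0.396). The difference of mean log2 CPM was -0.12 within the low mitochondrial class and -0.05 within the high class, where each class has only 1 library of one of the groups. CDK4 (ENSG00000135446, chromosome 12, 57747727 to 57756013, minus strand, GRCh38) shares 43.2% of its exon bases with TSPAN31, a tetraspanin gene on the opposite strand. Whether the counting used strand is not given in the sources used here, so reads of this overlap may belong to either gene. TSPAN31 had 439 to 530 counts per library against 3147 to 3778 for CDK4, and its log2 fold change was 0.06 (edgeR adjusted p = 0.828).

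CDK6, the other partner of D-type cyclins, had 49.3, 48.9 and 51.8 FPKM in OE-NC and 54.8, 52.9 and 50.2 FPKM in OE-circSHPRH. The groups overlapped, since OE-NC replicate 3 exceeded OE-circSHPRH replicate 3. The CPM means were 619 ± 18.9 and 652 ± 27.6 (SD, n = 3 each), a fold of 1.05 with an interval of 0.990 to 1.12 (edgeR adjusted p = 0.576). Its log2 fold change was 0.07 in all libraries and 0.11 without OE-circSHPRH replicate 3 (adjusted p = 0.184). Within the low and high mitochondrial classes the differences were 0.03 and 0.06. CDK6 (ENSG00000105810) lies on chromosome 7, 92604921 to 92836594, minus strand, and the antisense gene AC002454.1 covers 0.661% of its exon bases.

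The kinases of S phase and mitosis were expressed at similar levels. CDK2 (ENSG00000123374, chromosome 12, 55966769 to 55972784, plus strand) had 8.80, 9.80 and 9.10 FPKM in OE-NC and 9.35, 9.80 and 9.55 FPKM in OE-circSHPRH. These ranges overlapped, and the fold was 1.04 with an interval of 0.940 to 1.14 (edgeR adjusted p = 0.857). Within the low and high mitochondrial classes the log2 differences of CDK2 were 0.04 and 0.07. Genes on the opposite strand cover part of the CDK2 exons, AC025162.1 14.5% and PMEL, a melanosome protein gene, 2.29% with 33 to 66 counts per library. CDK1 (ENSG00000170312, chromosome 10, 60778331 to 60794852, plus strand) had 9.57, 9.52 and 9.22 FPKM in OE-NC and 8.46, 8.56 and 9.20 FPKM in OE-circSHPRH. The CDK1 groups were apart only by the small step between OE-NC replicate 3 and OE-circSHPRH replicate 3, which had 641 and 610 counts and 36.6 CPM each. Its fold was 0.927 with an interval of 0.842 to 1.02 (edgeR adjusted p = 0.608). The log2 fold change of CDK1 was -0.11 in all libraries and -0.15 without OE-circSHPRH replicate 3 (adjusted p = 0.334). It was -0.05 within the low and -0.11 within the high mitochondrial class. CDK7 (ENSG00000134058, chromosome 5, 69234795 to 69277430, plus strand), the CDK-activating kinase, had 15.7, 15.4 and 16.1 FPKM in OE-NC and 16.5, 16.3 and 16.6 FPKM in OE-circSHPRH. All OE-circSHPRH libraries were above all OE-NC libraries, with a fold of 1.05 and an interval of 0.956 to 1.14 (edgeR adjusted p = 0.791). Its log2 differences were 0.09 within the low and 0.02 within the high mitochondrial class. Its processed pseudogene CDK7P1 held 0 to 2 counts per library.

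Among the 5 inhibitor genes of the set, CDKN1B (ENSG00000111276, chromosome 12, 12715058 to 12722371, plus strand), which encodes p27, varied least between replicates. It had 49.4, 49.0 and 50.1 FPKM in OE-NC and 52.0, 51.2 and 52.6 FPKM in OE-circSHPRH, without overlap. The CPM means were 141 ± 1.50 and 148 ± 2.04 (SD, n = 3 each), a coefficient of variation of 1.06% and 1.38%. The fold was 1.05 with an interval of 0.986 to 1.12 (edgeR adjusted p = 0.612), and the log2 difference was 0.10 within the low and 0.04 within the high mitochondrial class. CDKN1A, which encodes the related inhibitor p21, rose 1.34-fold with an interval of 1.27 to 1.42 (edgeR adjusted p = 1.44e-05), from 767.8 ± 3.08 to 1032 ± 39.0 CPM (SD, n = 3 each). The intervals of CDKN1A and CDKN1B did not overlap, although limma on log2(FPKM + 0.1) with low genes removed did not call CDKN1A (adjusted p = 0.208). With CDK1 and CDK4 lower and CDK7 and CDKN1B higher, 4 of 10 members had groups that did not overlap, against 15.6% of all genes tested. For CDK1 the gap was within the rounding of the printed CPM.

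Of the INK4 genes, CDKN2C and CDKN2D had their highest level in OE-circSHPRH replicate 3. CDKN2C (ENSG00000123080, chromosome 1, 50960745 to 50974633, plus strand), which encodes p18, had 10.1, 10.6 and 10.1 FPKM in OE-NC and 9.31, 9.60 and 11.8 FPKM in OE-circSHPRH. OE-circSHPRH replicate 3 was the highest of the 6 libraries and the other OE-circSHPRH libraries were the lowest. The fold was 0.997 with an interval of 0.884 to 1.12 (edgeR adjusted p = 0.993). Its log2 fold change went from -0.0049 to -0.12 without OE-circSHPRH replicate 3 (adjusted p = 0.477). It was 0.19 within the low and -0.10 within the high mitochondrial class, in opposite directions. OE-circSHPRH replicate 3 is the only library of its group in the low class, so the class and that library cannot be told apart here.

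CDKN2D (ENSG00000129355, chromosome 19, 10566462 to 10569059, minus strand), which encodes the p19 INK4 protein, had 65, 99 and 73 counts in OE-NC and 70, 77 and 115 counts in OE-circSHPRH, or 2.71 to 4.54 FPKM. The groups overlapped, with a coefficient of variation of 18.7% in OE-NC and 26.8% in OE-circSHPRH. The fold was 1.15 with a wide interval of 0.859 to 1.53 (edgeR adjusted p = 0.804). Without OE-circSHPRH replicate 3 the log2 fold change was -0.04 instead of 0.20, and within the low and high mitochondrial classes it was 0.51 and 0.11. CDKN2A (ENSG00000147889, chromosome 9, 21967753 to 21995301, minus strand) had 4.49, 3.67 and 4.09 FPKM in OE-NC and 3.63, 3.77 and 4.11 FPKM in OE-circSHPRH. These ranges overlapped, with a fold of 0.942 and an interval of 0.815 to 1.09 (edgeR adjusted p = 0.832). The log2 difference of CDKN2A was 0.02 within the low and -0.14 within the high mitochondrial class, again in opposite directions. The low-class value again rests on OE-circSHPRH replicate 3 as the only library of its group. Its log2 fold change was -0.09 in all libraries, from -0.015 without OE-NC replicate 1 to -0.16 without OE-NC replicate 2. CDKN2A encodes both p16 and, from another first exon and reading frame, ARF, a protein that stabilises p53. Gene-level counts do not separate these products. At the same locus CDKN2B, the gene of p15, had 3 to 12 counts per library and did not pass the filter, the antisense gene CDKN2B-AS1 had 0 to 3, and MTAP, a purine salvage enzyme gene, had a log2 fold change of -0.07 (edgeR adjusted p = 0.705).

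CDKN3 (ENSG00000100526, chromosome 14, 54396849 to 54420218, plus strand) had 82, 103 and 89 counts in OE-NC and 88, 68 and 69 counts in OE-circSHPRH. The groups overlapped through OE-circSHPRH replicate 1. The fold was 0.850 with an interval of 0.669 to 1.08 (edgeR adjusted p = 0.666), and the log2 difference was -0.40 within the low and -0.09 within the high mitochondrial class. A rise of the size seen for CDKN1A lies above the interval of CDKN3 but within that of CDKN2D, whose upper bound is 1.53-fold.

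**Figure D3:**
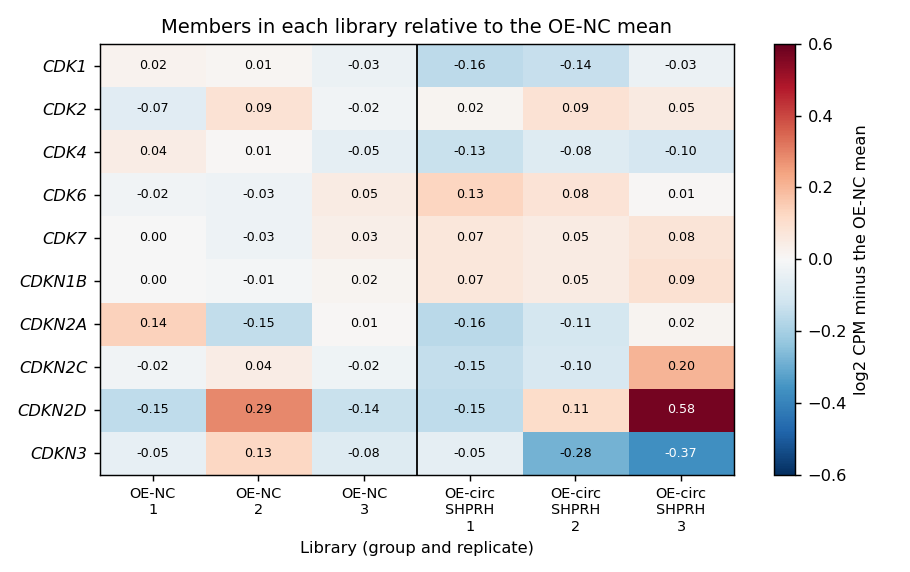
Log2 CPM of each member in each library minus its mean over the OE-NC libraries, with OE-NC left and OE-circSHPRH right of the line. OE-circSHPRH replicate 3 reads 0.58 for CDKN2D, 0.20 for CDKN2C and -0.37 for CDKN3, while CDK4 lies between -0.13 and -0.08 in the OE-circSHPRH libraries.

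Ratios within a library do not depend on its depth and were compared as descriptions, with no test. Their size does depend on the gene lengths used, here the merged exon lengths of the deposited FPKM. They were chosen with earlier results of these data known. How often ratios of other gene pairs do not overlap was not computed. For single genes the groups did not overlap in 15.6% of those tested. The CDK6 to CDK4 ratio of FPKM was 0.716, 0.728 and 0.803 in OE-NC and 0.897, 0.834 and 0.806 in OE-circSHPRH. The groups did not overlap, although OE-NC replicate 3 and OE-circSHPRH replicate 3 nearly met. The CDK1 to CDK2 ratio was 0.972 to 1.09 in OE-NC and 0.873 to 0.964 in OE-circSHPRH, also without overlap. Here OE-NC replicate 2 at 0.972 and OE-circSHPRH replicate 3 at 0.964 nearly met. The summed INK4 members stood at 0.146 to 0.155 of CDK4 plus CDK6 in OE-NC and at 0.135 to 0.182 in OE-circSHPRH, with the highest value in OE-circSHPRH replicate 3. The CDKN1B to CDK2 ratio was 5.37 ± 0.326 in OE-NC and 5.43 ± 0.181 in OE-circSHPRH (SD, n = 3 each), with overlap. With CDKN1A added, the ratio of inhibitor to CDK2 mRNA was 32.4 ± 1.77 in OE-NC and 40.4 ± 1.41 in OE-circSHPRH (SD, n = 3 each). That sum consists mostly of CDKN1A, the gene that was called.

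**Figure D4:**
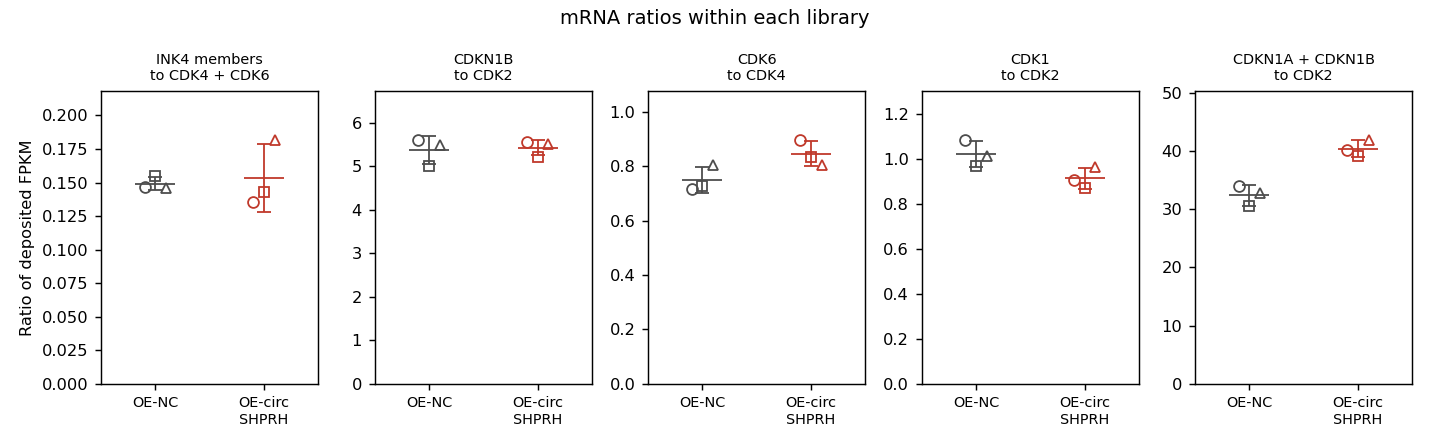
Ratios of deposited FPKM within each library, with symbols for replicates and bars for the mean ± SD of 3 libraries per group. CDK6 to CDK4, CDK1 to CDK2 and CDKN1A plus CDKN1B to CDK2 do not overlap between the groups, and the other ratios do. The share among ratios of other gene pairs was not computed.

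Across the 6 libraries the log2 CPM of CDK7 and CDKN1B varied together (Pearson r = 0.95, and 0.86 for deviations from the group means), as did those of CDKN2C and CDKN2D (0.83 and 0.90). CDK1 and CDK6 varied in opposite directions (r = -0.95, and -0.95 for deviations from the group means), as did CDK4 and CDK7 (r = -0.90 and -0.65). These pairs had the highest and lowest r among all pairs of members. They are descriptions over 6 points that share their library and depth. Among 9952 other protein-coding genes with at least 10 CPM, the pattern most like that of CDK1 was that of SLC3A2 (r = 0.995), AKT1S1 (0.994) and TMEM79 (0.992). For CDK4 it was that of MED27 (0.992), HES1 (0.991) and GTPBP1 (0.988), and for CDKN1B that of HNRNPDL (0.996), ITPRIPL2 (0.992) and PKP2 (0.988). The 3 genes most like CDKN3 were XPO6 (0.991), CIP2A (0.988) and TIRAP (0.987). None of these 12 genes was called, with edgeR adjusted p from 0.206 for SLC3A2 to 0.641 for XPO6. How high the largest r of 9952 genes over 6 points would be by chance was not tested.

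Genes that act on the members were listed by role, with earlier results of these data known. Of all genes tested, 49.2% had a negative log2 fold change. Of 11 tested cyclin partners, counting the CDK7 partner MNAT1, none was called, 7 had a negative log2 fold change and the median was -0.08. Those with the smallest p were CCND1 (0.11, edgeR adjusted p = 0.333), the D-type cyclin of CDK4 and CDK6, CCNB2 (-0.19, adjusted p = 0.380), a B-type cyclin of CDK1, and CCNE2 (-0.44, adjusted p = 0.456), an E-type cyclin of CDK2. Of 9 genes listed for the phosphorylation switch of the CDKs, 8 had a negative log2 fold change, against 49.2% of all genes tested. None was called and the median was -0.13. The list also counts CKS1B and CKS2, which are CDK-binding subunits rather than enzymes of the switch. CKS1B, a CDK-binding subunit, stood at -0.19 (edgeR adjusted p = 0.306), PKMYT1, a kinase that inhibits CDK1, at -0.27 (adjusted p = 0.333) and CDC25B, a phosphatase that activates CDK1, at -0.12 (adjusted p = 0.378). PKMYT1 and CDC25B, which act on CDK1 in opposite ways, thus stood on the same side of 0. At an unadjusted p under 0.05 4 of these 9 genes, CKS1B among them, and 3 of the 11 cyclin partners passed, against 10.3% of all genes.

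For the turnover and transcription of p27, none of 12 genes was called and the median was -0.02. SKP2, the ligase subunit that marks p27 for degradation, stood at -0.02 (edgeR adjusted p = 0.934), and the smallest p were those of RBX1 (-0.19, adjusted p = 0.493), a RING subunit of cullin ligases, KPNA2 (-0.06, adjusted p = 0.755), an importin, and AKT1 (-0.04, adjusted p = 0.813), a kinase that phosphorylates p27. Of 5 chaperone genes none was called, and HSP90AA1, a chaperone of CDK4 and CDK6, stood at 0.14 (adjusted p = 0.261). Of the 3 genes of the RB family, substrates of CDK4 and CDK6, none was called, RB1 stood at 0.0031 and RBL1 at -0.24 (adjusted p = 0.492). Of 15 other CDKs tested none was called, with a median of 0.03 and log2 fold changes from -0.13 for CDK20 to 0.14 for CDK18. Of 8 partners of the transcription CDKs none was called, with CCNL1, a cyclin L gene, highest at 0.12. CDKN1C, the gene of p57, stood at 0.14 (edgeR adjusted p = 0.833), so that CDKN1A was the one CDK inhibitor gene called.

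**Figure D5:**
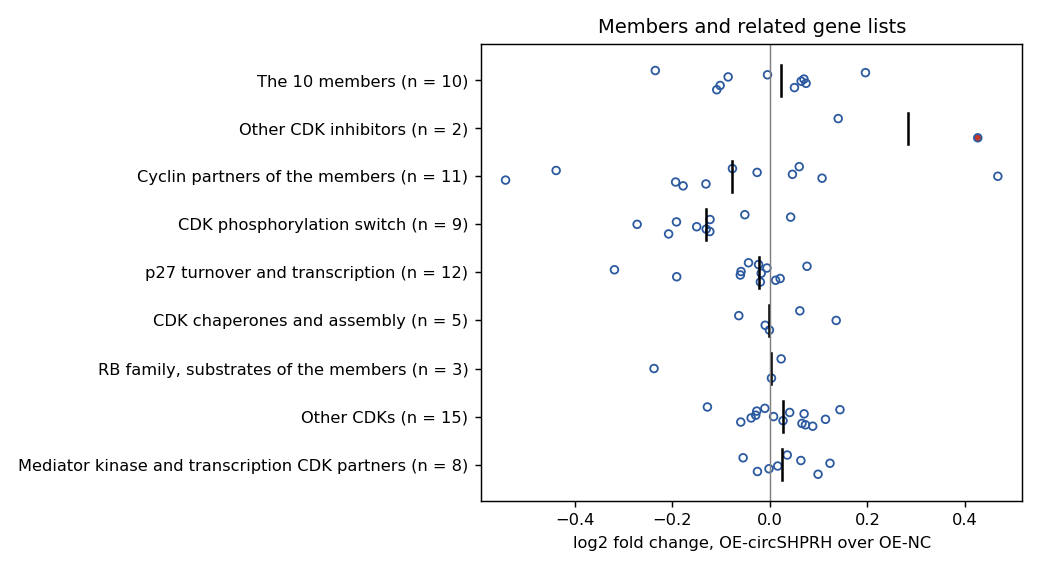
Log2 fold changes, OE-circSHPRH over OE-NC, of the tested genes in each list (circles), with the list median as a black line and called genes filled. CDKN1A is the one filled circle, at 0.43, and the median of the phosphorylation switch list lies at -0.13.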

How the data were processed

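The data are 1 deposited table of RNA-seq values for 6 libraries, prepared, per the labels' protocols, from TRIzol-extracted total RNA with a SMARTER mRNA kit. Raw read counts per gene were deposited by the authors without normalization. The deposited FPKM values are the authors' counts scaled per library and per kilobase of merged exons, a length identical to that of GENCODE 29 for all 28752 genes. The authors' deposited log2 fold changes and p-values are quoted only where named. The submitters' processing notes name GRCh37, while all deposited coordinates match GENCODE 29 on GRCh38, which is used here. The sources used here do not give the aligner, the counting tool or the use of strand.

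Counts were filtered with filterByExpr of edgeR 4.0.16 (minimum count 10, minimum total 15), scaled with TMM and tested two-sided with glmQLFit and glmQLFTest, in a model of group alone, with Benjamini-Hochberg adjusted p under 0.05 as the threshold. The standard error is the absolute log2 fold change over the square root of F, and 95% intervals use it. One count is worth 0.0568 to 0.0639 CPM. The log2 CPM used a prior count of 2. DESeq2 1.42.0 and limma 3.58.1 were run as alternatives. The edgeR fit, with and without the replicate block, limma-voom and DESeq2 were tested on simulated counts. A minimum recovery of the largest simulated folds was required, except of the fit with the replicate block. How often small folds were recovered is not given here. The other alternatives, among them limma on FPKM, were not. No pair of libraries agreed within sampling noise: the chi-square over genes per degree of freedom was at least 2.19. It ran from 2.19 to 7.86 for pairs within a group and from 3.10 to 8.69 for pairs between groups. These ranges overlapped. Promoter windows and motifs were read from RefSeq, with entries for 9 of the 10 members, and protein sequences were not analysed here.

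The members, lists and tests were chosen with earlier results of these data known. Genes named are the members, CDKN1A, SHPRH, called genes of the lists, up to 3 per list with the smallest p, and the 3 most correlated genes of CDK1, CDK4, CDKN1B and CDKN3. Other genes named, among them SKP2, RB1, CDK18, CDKN1C, TSPAN31 and MTAP, were chosen after their values were seen.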

Additional observations from a re-analysis of the deposited data

How the results depend on the processing

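No member with an adjusted p was called in the 16 alternative fits, where DESeq2 gave none to CDKN2A, CDKN2C, CDKN2D and CDKN3. Of the 160 member values 155 kept their direction. The log2 fold change of CDKN2C was 0.0501 with the mitochondrial class as a term. Without OE-circSHPRH replicate 1 CDKN2C stood at 0.0616, and its range with each library left out was -0.12 to 0.0616. Without OE-circSHPRH replicate 3 CDKN2D stood at -0.0372, in a range of -0.0372 to 0.36. Leaving out a library moved the number of genes called from 31 to between 5 (without OE-circSHPRH replicate 2) and 311 (without OE-circSHPRH replicate 3). That number was also 194 without a filter, 77 with DESeq2, 171 with the mitochondrial class as a term, and 3 and 1 with limma on log2(FPKM + 0.1) and log2(FPKM + 1). Limma on FPKM did not call CDKN1A (log2 fold changes 0.42 to 0.43, adjusted p = 0.193 to 0.279) or SHPRH (1.08 to 1.47, adjusted p = 0.0527 to 0.0891). Causes were not tested. The order by FPKM gave 2 members another rank in OE-NC alone and 5 per principal transcript length, an alternative chosen after seeing the data.

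With the replicate number as a block, 6 genes were called, CDKN1A among them (log2 fold change 0.43, edgeR adjusted p = 0.00531), and no member changed direction. Same-numbered libraries did not deviate together (correlations of -0.04, -0.03 and -0.11), so the numbers were not taken as pairs. No member passed an unadjusted p under 0.05 with the block. CDKN2D and CDKN3 had the fewest counts of the members, 65 to 115 and 68 to 103 per library, and how far depth limits their values was not tested.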
